A study of Caenorhabditis elegans with 6 samples.

Results

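The B-class genes examined here are ceh-12, vab-7, del-1, glr-4 and acr-5, 5 genes of Caenorhabditis elegans that B-class motor neurons of the ventral cord express and that the proteins UNC-4 and UNC-37 keep off in A-class motor neurons. They were taken by name: every probe set whose only gene symbol in the platform's gene table is one of the 5 was used, which gave 7 probe sets of 22548 and 5 genes of 17118. ceh-12, vab-7, del-1 and acr-5 have 1 probe set each, and glr-4 has 3. Transcripts bound to PAB-1, a protein that holds poly(A) tails and here bore a FLAG tag, were collected from L2 larvae grown at 25 °C and hybridised to 6 one-colour arrays, 3 from the wild-type strain N2 and 3 from the mutant unc-37(e262). In both groups the tagged protein was made from the unc-4 promoter, which is active in DA and VA neurons and also in a few other neurons, so the samples are enriched for A-class neurons and not pure. The labels name no agent for either group. The e262 allele is known as a viable partial loss of unc-37 function, and it was carried by the whole animal, not by these neurons alone.

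UNC-4 is a homeodomain protein made in A-class neurons, and UNC-37, a Groucho family protein, is the corepressor it works with. A-class neurons (DA and VA) drive backward crawling and B-class neurons (DB and VB) forward crawling. VA and VB neurons arise as sister cells, and when either unc-4 or unc-37 is mutant, VA neurons receive synaptic inputs normally given to VB and backward crawling fails. In wild type the pair keeps B-class genes silent in A-class cells, so the question put to these arrays is whether B-class transcripts are more abundant in the A-class sample of the unc-37 mutant.

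Both B-class transcription factor genes and 2 of the 3 B-class channel and receptor genes were higher in unc-37, and acr-5 was the exception. del-1 rose 2.32-fold, glr-4 2.15-fold, ceh-12 1.93-fold and vab-7 1.71-fold, while acr-5 was at 1.004-fold (n = 3 arrays per group here and throughout). These folds come from the brightest probe set of each gene. The 4 rises passed limma's test at an adjusted p below 0.05 (Benjamini-Hochberg over all probe sets), where 3.94% of all genes were called higher and 2.81% lower. For 1 gene, the smallest two-sided p that exact permutation of 3 arrays against 3 allows is 0.1, and each of the 4 reached it.

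**Figure D1:**
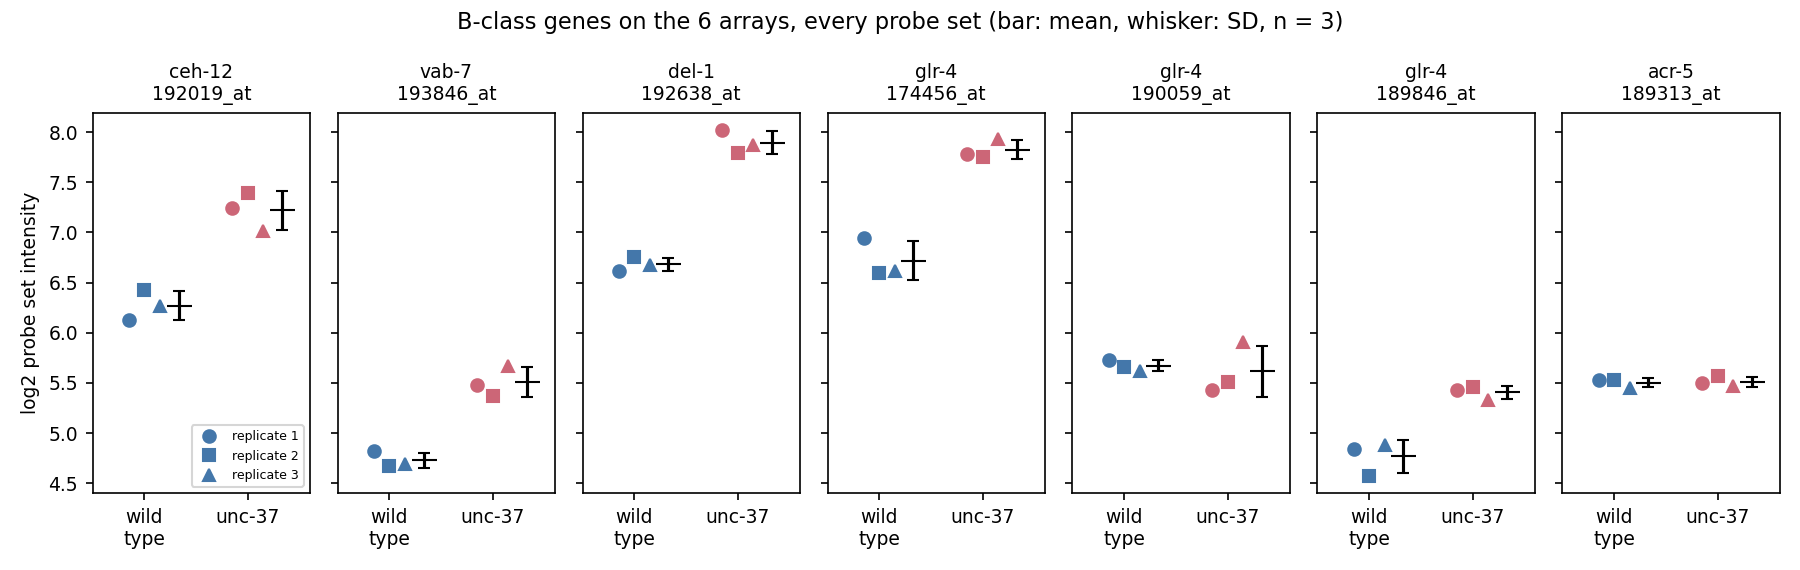
The log2 intensity of every probe set of the 5 genes (y axis) is plotted for the 3 wild-type and 3 unc-37 arrays (x axis), with marker shapes for the replicate numbers and a black bar and whisker for mean and SD (n = 3). The unc-37 arrays lie above all wild-type arrays for ceh-12, vab-7, del-1 and 2 of the 3 glr-4 probe sets, and the groups overlap for the remaining glr-4 probe set and for acr-5; heights are not comparable between panels.

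Of the transcription factor genes, ceh-12 encodes a homeodomain protein related to HB9 that is made in VB neurons, and its expression in VA neurons is known to accompany the change of synaptic input. Its probe set, 192019_at, read 69.9, 85.8 and 76.7 intensity units in wild-type replicates 1 to 3 and 152, 169 and 129 in the corresponding unc-37 replicates. The lowest unc-37 array lay 0.59 above the highest wild-type array on the log2 scale, so the groups did not overlap. Mean log2 levels were 6.27 ± 0.15 (SD) for wild type and 7.22 ± 0.19 for unc-37, a log2 change of 0.95 ± 0.13 (SE; 95% interval 0.66 to 1.24; limma adjusted p = 0.0045). Among 17118 genes, ceh-12 had the rank 202 by size of rise.

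vab-7 encodes a homeodomain protein of the even-skipped kind that sets the identity of DB neurons and is known to repress unc-4 there. Probe set 193846_at read 28.2, 25.6 and 25.9 units in wild type and 44.7, 41.3 and 50.8 in unc-37. All 6 values are low for these arrays, and the mean lay below the median of all probe sets, but the lowest unc-37 array was still 0.55 above the highest wild-type array on the log2 scale. The log2 level went from 4.73 ± 0.08 to 5.51 ± 0.15, a change of 0.78 ± 0.10 (SE; 95% interval 0.54 to 1.01; limma adjusted p = 0.00484). Near the floor of an array, RMA values tend to understate a fold.

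Of the channel and receptor genes, del-1 encodes a subunit of the DEG/ENaC sodium channel family that serves as a VB marker in young larvae. Probe set 192638_at read 98.1, 108 and 102 units in wild type and 259, 222 and 233 in unc-37. This was the widest gap of the 5 genes, 1.04 on the log2 scale between the highest wild-type and the lowest unc-37 array, and the SDs within groups were small (0.07 and 0.11). The log2 change was 1.21 ± 0.10 (SE; 95% interval 0.99 to 1.43; limma adjusted p = 0.000996). By size of rise del-1 had the rank 82 of 17118 genes, and by p the rank 20.

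glr-4 encodes a subunit of ionotropic glutamate receptors. Its brightest probe set, 174456_at, read 123, 96.7 and 97.96 units in wild type and 220, 216 and 244 in unc-37. The groups did not overlap, and the log2 change was 1.11 ± 0.12 (SE; 95% interval 0.84 to 1.37; limma adjusted p = 0.00209). The dimmest one, 189846_at, read 28.7, 23.8 and 29.5 units in wild type against 43.2, 43.9 and 40.1 in unc-37. It moved the same way without overlap, by 0.64 ± 0.11 (limma adjusted p = 0.0123), though its call ended without unc-37 replicate 1 (adjusted p = 0.0568).

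The third probe set of glr-4, 190059_at, gave another answer. It read 53.1, 50.5 and 49.3 units in wild type and 43.0, 45.5 and 60.0 in unc-37, so that unc-37 replicates 1 and 2 lay below every wild-type array and replicate 3 above. Its log2 change was -0.06 ± 0.13 (SE; 95% interval -0.36 to 0.24; limma adjusted p = 0.859), and without unc-37 replicate 1 it was 0.04. The changes of 174456_at and 190059_at differed by 1.16 on the log2 scale, with no overlap of the groups in the array-wise difference (exact permutation p = 0.1, the smallest possible). Which part of the transcript each probe set reads is not given in the sources used here. With the 3 probe sets averaged, the change of glr-4 was 0.56 (95% interval 0.34 to 0.78). Of the 3 glr-4 probe sets 2 were called higher, where 3.85% of all 22548 probe sets were.

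acr-5 encodes a subunit of nicotinic acetylcholine receptors, and acr-5 reporters are a standard B-class marker. Probe set 189313_at read 46.1, 46.2 and 43.8 units in wild type and 45.2, 47.3 and 44.1 in unc-37. The groups overlapped, with the highest value in unc-37 (replicate 2) and the lowest in wild type (replicate 3). On the log2 scale wild type stood at 5.50 ± 0.04 and unc-37 at 5.51 ± 0.05, and the 95% interval of the change ran from -0.19 to 0.20 (limma adjusted p = 0.979), or 0.879-fold to 1.15-fold. The intervals of the other 4 genes all lie above that range. The mean level of this single probe set was below the median of all probe sets, and no detection calls were used here, so the values do not show whether it responds to acr-5 transcript at this level.

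The sizes of the rises were set against each other. Over the 10 pairs of the 5 genes, the array-wise differences of acr-5 to each of the other genes did not overlap between groups, by 0.77 to 1.21 on the log2 scale. The change of vab-7 was smaller than that of del-1 by 0.44 and than that of glr-4 by 0.33, also without overlap between groups. As the vab-7 probe set is dim, how much of this is compression of its fold was not tested. All values of glr-4 here are those of its brightest probe set. Its probe sets 189846_at and 190059_at changed by 0.64 and -0.06, less than vab-7 (0.78), and the latter was close to acr-5 (0.01). The differences among ceh-12, del-1 and glr-4 were 0.11 to 0.26, and that of ceh-12 to vab-7 was 0.17, and all of these overlapped (exact permutation p = 0.3 to 0.7). No pair can pass a corrected threshold in this design: the smallest exact p is 0.1, or 0.167 adjusted over the 10 pairs. Within groups the genes did not follow one array: unc-37 replicate 3 was the lowest of the unc-37 arrays for ceh-12 and the highest for vab-7 and glr-4, and del-1 was highest in replicate 1.

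All unc-37 arrays lay above all wild-type arrays in 12.6% of the 17118 genes, and in 4 of the 5 B-class genes. The median change of the 5 was that of ceh-12, 0.95, and the median of all genes was -0.01. When each array was left out in turn, the 4 rises stayed called all 6 times, at adjusted p = 0.00211 to 0.00895 for del-1, 0.00402 to 0.0147 for glr-4, 0.00558 to 0.0284 for ceh-12 and 0.00909 to 0.0273 for vab-7.

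The rises of the B-class genes came together with rises of genes that A-class and B-class neurons share. The genes for acetylcholine synthesis and release, unc-17 (the vesicular transporter), cha-1 (choline acetyltransferase) and cho-1 (the choline transporter), rose by 1.17, 1.32 and 0.98 on the log2 scale (limma adjusted p = 0.00298, 0.00523 and 0.00665). Averaged, these 3 read 7.53, 7.06 and 7.35 on the log2 scale in wild type against 8.505, 8.27 and 8.63 in the mutant, a shift of 1.16. The mean of 18 pan-neuronal genes, which all neurons use, read 7.84, 7.69 and 7.74 in wild type against 8.37, 8.33 and 8.33 in the mutant, a shift of 0.58. Among the 18, rgef-1 and unc-31 lay below the median of all probe sets and changed by -0.001 and -0.17. Such dim, flat probe sets lower the shift, and values relative to it, ceh-12 included, were not recomputed without them. In a bulk sample such as this, more tagged cells of a type, more tagged protein per cell and more RNA per cell cannot be told apart.

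**Figure D2:**
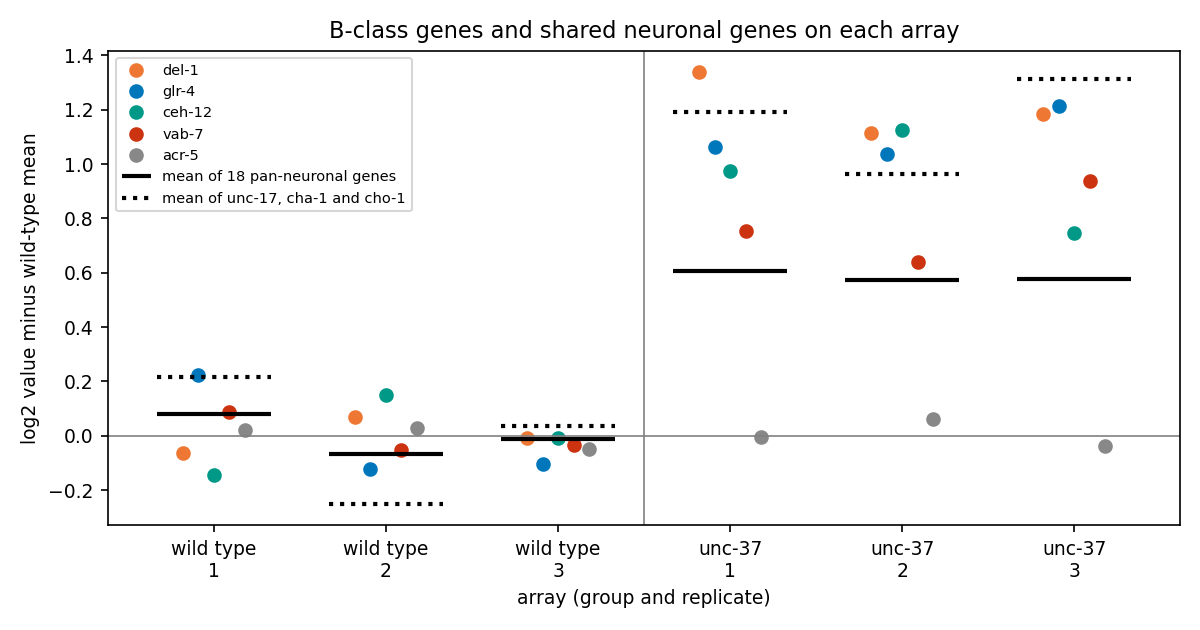
The log2 value of each B-class gene at its brightest probe set, minus its wild-type mean (y axis), is plotted for each of the 6 arrays (x axis), with the means of 18 pan-neuronal genes (solid bars) and of unc-17, cha-1 and cho-1 (dotted bars) treated alike. On the unc-37 arrays del-1, glr-4, ceh-12 and vab-7 lie above the pan-neuronal bar and on either side of the cholinergic one or below it, while acr-5 stays near 0.

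Taken relative to the pan-neuronal mean of the same array, del-1 was still 0.63 higher in unc-37 (95% interval 0.37 to 0.88), glr-4 0.52 (0.27 to 0.77) and ceh-12 0.36 (0.04 to 0.69). The glr-4 value holds for its brightest probe set only. Of its other probe sets, 189846_at was at 0.05 (-0.19 to 0.30) and 190059_at at -0.64 (-0.95 to -0.33). On that scale the ceh-12 values of the groups overlapped, with 2 of the 3 unc-37 arrays above all wild-type arrays. vab-7 was 0.19 higher, with an interval of -0.06 to 0.44, and the 3 unc-37 arrays all above wild type. acr-5 was 0.58 lower (-0.81 to -0.35). This scale lowers every change by 0.58, so a flat probe set such as that of acr-5 falls by construction. Of all probe sets, 86.3% were called lower.

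Relative to unc-17, cha-1 and cho-1, no rise was left that the fit could tell from 0. del-1 differed by 0.06 (95% interval -0.39 to 0.50), glr-4 by -0.05 (-0.49 to 0.39), ceh-12 by -0.21 (-0.65 to 0.24) and vab-7 by -0.38 (-0.82 to 0.06). For del-1, glr-4 and ceh-12 the arrays of the groups overlapped on this scale (exact permutation p = 0.9, 0.7 and 0.5), and for vab-7 all unc-37 arrays were below all wild-type arrays (0.1). acr-5 was 1.15 lower (-1.59 to -0.71), near the 1.16 by which this scale lowers every change. Of all probe sets, 97.7% were called lower. The intervals of the 5 genes also carry the spread of the 3 reference genes between arrays, and they do not show that the B-class genes moved exactly as those did. On this scale the fit gave all 5 genes the same SE, 0.226, so the intervals hold no spread particular to a gene. They treat that SE as known, though 3 arrays per group estimate it, and may be too narrow. The share of the B-class rises that goes with the shift of shared neuronal genes was not tested further.

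**Figure D3:**
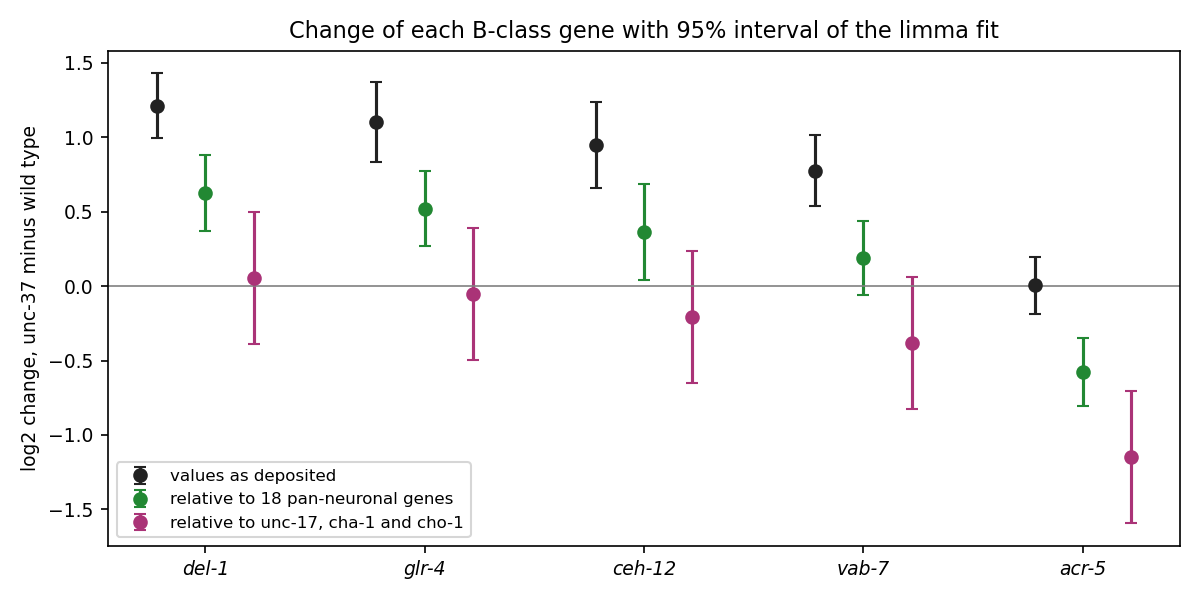
The log2 change of each B-class gene, unc-37 minus wild type (y axis), is shown with the 95% interval of the limma fit for the deposited values (black), relative to 18 pan-neuronal genes (green) and relative to unc-17, cha-1 and cho-1 (purple). The intervals of del-1, glr-4, ceh-12 and vab-7 lie above 0 on the first scale and include 0 on the last, and acr-5 passes from 0.01 to -1.15.

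Of 5 genes read as markers of the A-class sample, unc-4, unc-17, cha-1, cho-1 and unc-3, unc-4 had the largest change. unc-17, cha-1, cho-1 and unc-3 are cholinergic genes, which do not separate A-class from B-class neurons. unc-4 read 290, 156 and 114 units in wild type and 1067, 1441 and 1001 in unc-37, 6.69-fold higher (limma adjusted p = 0.00245), and wild-type replicate 1 stood above the others. The tagged protein was made from the unc-4 promoter too, and whether its amount differed between the groups was not tested. unc-37 transcript rose by 0.50 ± 0.09 (SE) at its brightest probe set (limma adjusted p = 0.0159), a call that ended without wild-type replicate 1 or 2 (adjusted p = 0.0509 and 0.0711), with an intensity trend in the variance (0.0522) and with a replicate block (0.0588). Relative to pan-neuronal genes it was -0.09. lsy-22, the gene of another Groucho family protein, was at 0.22 (limma adjusted p = 0.246).

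The other genes around the B-class transcription factors were followed as lists. Of 15 measured motor neuron transcription factor genes, ceh-12 and vab-7 included, 8 rose and none fell (1 was lower at an unadjusted limma p below 0.05), with a median change of 0.48. Beside unc-4, the largest was the T-box gene mab-9 (0.99 ± 0.12, limma adjusted p = 0.00327), close to ceh-12 in size. unc-3, the factor that switches on cholinergic genes, rose by 0.94, and the Hox genes mab-5, lin-39 and egl-5 by 0.89, 0.60 and 0.48. These last 4 calls were less firm: each ended when wild-type replicate 2 or unc-37 replicate 1 was left out, that of egl-5 whichever array was left out (adjusted p = 0.0539 to 0.165). With each of the 6 arrays left out in turn, unc-3 stayed called 1 time, mab-5 2 times and lin-39 4 times. Factors of GABA motor neurons were not called, among them unc-30 (-0.23, adjusted p = 0.195), alr-1 (-0.16, 0.528) and unc-55 (-0.08, 0.781).

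Wnt signalling is known to drive ceh-12 in posterior VA neurons when UNC-4 is absent, with the Wnt EGL-20 as ligand and the Frizzled proteins MIG-1 and MOM-5 as receptors. Of 18 genes of this pathway, 4 were called higher by limma and none lower (9 and 1 at an unadjusted p below 0.05), with a median change of 0.31. On the log2 scale mig-1 went from 7.53 ± 0.03 to 8.52 ± 0.34, a change of 0.99 (limma adjusted p = 0.00993), and mom-5 changed by 0.83 (0.0113), so both receptor genes moved by about as much as ceh-12. dsh-1 and cwn-1 rose by 0.53 and 0.61 (0.0404 and 0.0474). egl-20 itself was at 0.03 (0.891). The mom-5 call ended without wild-type replicate 2 (0.0525), and those of dsh-1 and cwn-1 without each array except wild-type replicate 3 (0.0536 to 0.159). Relative to the pan-neuronal mean, mig-1 was 0.41 higher and mom-5 0.25. On that scale 1 of the 18 genes was called higher and 9 lower, where 1.06% of all probe sets were called higher and 86.3% lower.

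In their own gene families, del-1 and glr-4 stood at the top and acr-5 in the middle, each at its brightest probe set. With its probe sets averaged, glr-4 was at 0.56, below glr-5 at the brightest probe set of that gene. Of 29 DEG/ENaC genes, del-1 and deg-1 (0.46, limma adjusted p = 0.0169) rose and none fell (3 were lower at an unadjusted p below 0.05), with a median change of -0.10; unc-8, whose product also forms sodium channels in motor neurons, was at 0.28 (0.201). glr-4 was joined by glr-5 (1.02, 0.00927) as the only rises among 10 ionotropic glutamate receptor genes, which had a median of 0.07 and no called fall (1 at an unadjusted p below 0.05). Of 28 nicotinic receptor genes, 5 rose and eat-2 fell, with a median of 0.03. The risers were acr-15 (1.45, 0.00314), acr-2 (1.05, 0.00198), unc-38 (0.74), acr-12 (0.74) and acr-14 (0.62), and the last 3 of these and eat-2 each lost the call without wild-type replicate 2, unc-37 replicate 1 or unc-37 replicate 2, among others (adjusted p = 0.0560 to 0.151). deg-1 lost it without wild-type replicate 2 or unc-37 replicate 1 (0.0760 and 0.0699).

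**Figure D4:**
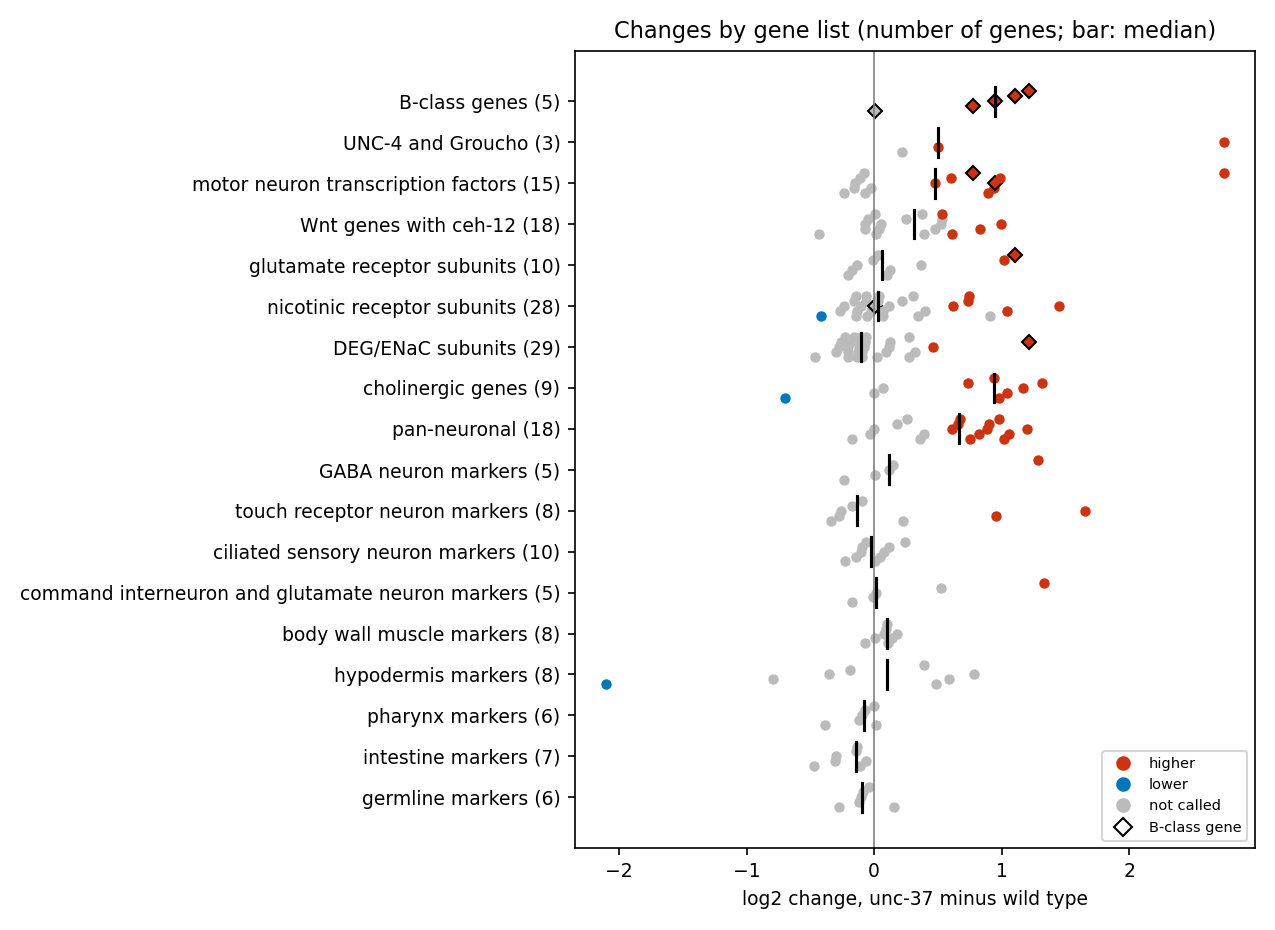
Each point is a gene at its brightest probe set, placed by its log2 change, unc-37 minus wild type (x axis), in the list named at the left with the number of its measured genes; red is called higher, blue called lower, grey not called, diamonds are B-class genes and black bars medians. The B-class genes, cholinergic genes and pan-neuronal genes have medians of 0.95, 0.94 and 0.66, and markers of ciliated neurons, muscle, pharynx, intestine and germline have no called gene.

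The sample's own markers and those of other cells were read on the same arrays. Of 9 cholinergic genes 6 rose and ace-1, an acetylcholinesterase gene, fell (-0.70, a call lost without wild-type replicate 1 or 2), and their summed intensity was 1364 to 1817 units in wild type and 2751 to 3398 in unc-37. Of 18 pan-neuronal genes 11 rose and none fell in limma's test (13 and 0 at an unadjusted p below 0.05), led by unc-13 (1.02) and rab-3 (0.90); the count of 11 fell to 4 with wild-type replicate 2 left out, and to 5 with unc-37 replicate 1 left out. They had sums of 7387 to 8688 and 12405 to 13148. Among markers of other neurons, snf-11, a GABA transporter gene, was the 1 of 5 GABA markers that rose, and its call ended without 4 of the 6 arrays. The sums of these 5 were 531 to 598 units in wild type and 662 to 961 in unc-37, and their median change was 0.12. mec-12 (1.66) and mec-7 (0.96), tubulin genes, were the 2 of 8 touch receptor markers that rose (951 to 1008 against 1434 to 1440). The median change of these 8 was -0.13, and 3 were higher and 1 lower at an unadjusted limma p below 0.05. flp-18 (1.33) was the 1 of 5 markers of command and glutamate interneurons that rose (677 to 790 against 1348 to 1917), with a median of 0.02. The sums of these lists include the genes called, so they do not show a rise of the other members. None of 10 ciliated neuron markers was called by limma, 1 having an unadjusted p below 0.05 (556 to 626 against 570 to 621).

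Outside the nervous system, 1 of 8 hypodermis markers changed, the collagen gene col-14 (-2.10), with sums of 5811 to 8649 units in wild type and 4877 to 7411 in unc-37. At an unadjusted p below 0.05 there were 5 of the 8, and the 4 besides col-14 were all higher in unc-37, dpy-8 at 0.78, dpy-7 at 0.59, lin-26 at 0.49 and elt-1 at 0.39 (limma adjusted p = 0.0527 to 0.203). None of 8 body wall muscle markers (7979 to 10157 against 8267 to 9968), 6 pharynx markers (2726 to 3842 against 2400 to 3365), 7 intestine markers (3142 to 4127 against 2451 to 3395) or 6 germline markers (615 to 656 against 607 to 617) was called by limma, and 1 of them, a germline marker, had an unadjusted p below 0.05. The summed levels of these 5 lists overlapped between the groups. Their median changes were 0.10 for hypodermis, 0.10 for body wall muscle, -0.08 for pharynx, -0.14 for intestine and -0.09 for germline. All 7 intestine markers had changes below 0 (-0.47 to -0.07), so the lack of calls does not show equal amounts of these tissues. No marker is at 0, since RMA leaves no such value (the lowest on any array was 10.2 units). No marker list defines B-class neurons apart from the 5 genes themselves, so the presence of B-class cells in the samples was not tested.

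By profile over the 6 arrays, the genes nearest to each B-class gene were found by root mean square distance after subtracting each gene's own mean, among 10384 genes with a symbol. Nearest to glr-4 was aps-2, an adaptor complex subunit gene (distance 0.03 on the log2 scale, r = 0.999), followed by lact-1 and unc-77, which encodes the sodium-leak channel subunit (both 0.07). Nearest to ceh-12 were vab-8 (0.07, r = 0.991), a gene of axon outgrowth, snap-1 (0.08) and cpna-5 (0.09). Nearest to del-1 were hecw-1 (0.10, r = 0.988), ccdc-149 (0.10) and tag-180 (0.12). Nearest to vab-7 were ctbp-1 (0.07, r = 0.988), which encodes a corepressor of the CtBP family, mtpn-1 (0.07) and nssp-74 (0.08). All 12 were called higher, by 0.64 to 1.24, with cpna-5, ctbp-1, mtpn-1 and nssp-74 losing the call without unc-37 replicate 1 or wild-type replicate 2 or both (adjusted p of up to 0.0715). With 6 arrays in 2 groups such likeness mostly reflects an equal step between the groups. For acr-5, whose profile is flat, rps-17, mut-16 and ptr-9 were nearest (0.01 each) and none was called.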

How the data were processed

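One-colour arrays of A-class motor neuron RNA were used, 3 wild type and 3 unc-37(e262). The authors deposited 1 intensity per probe set and array. RMA made these values, per the submitters' processing notes, and their size shows a linear scale. RMA's version, the content of each probe set and a genome build are not given in the sources. Per the labels' protocols RNA was amplified in 2 rounds, which can favour 3' ends and distort folds. The intensities were log2 transformed, with no filter and no further normalization. Array medians were 50.1 to 52.4 units. Precision is limited by how few arrays there are. The labels call the arrays biological replicates without naming cultures, and their array numbers run from 73 to 85 in wild type and from 89 to 98 in unc-37; should these mark the sequence of handling, it cannot be told apart from genotype.

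limma 3.58.1 in R 4.3.3 (lmFit and eBayes) tested all 22548 probe sets two-sided, adjusted p by Benjamini-Hochberg and called those with an adjusted p below 0.05; "rose" and "fell" mean called. The fit was tested on simulated data. Of the probe sets, 20766 name 1 gene, 887 several and 895 none, and a gene stands at its brightest probe set naming it alone. All 5 B-class genes matched the RefSeq gene table (assembly WBcel235), used for gene order only. Genes named are the 5 B-class genes, unc-4, unc-37 and lsy-22, the 3 genes of nearest profile for each B-class gene, and, in each list, up to 2 called genes of smallest p per direction or all where 5 or fewer were called. unc-17, cha-1 and cho-1 served as a scale. The remaining names (unc-3, mab-5, lin-39, egl-5, unc-30, alr-1, unc-55, egl-20, unc-8, unc-38, acr-12, acr-14, rgef-1, unc-31, dpy-7, dpy-8, lin-26, elt-1 and the chromosomal neighbours) were chosen after their values were seen. The B-class genes, lists and alternatives were chosen with earlier results of these data known. Plots used matplotlib 3.10.9 (Python 3.11.15). No sequences were used.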

Additional observations from a re-analysis of the deposited data

How the results depend on the processing

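The changes of the 5 genes were computed under 16 alternatives. Of the 78 resulting values, 68 kept direction and side of the threshold. Among these, the change of glr-4 was 0.56, against 1.11, with the mean of its probe sets instead of the brightest. Of the rest, 7 came from the 2 scalings and 3 were sign changes of acr-5 near 0. Scaled to unc-17, cha-1 and cho-1, ceh-12 was at -0.21, vab-7 at -0.38, glr-4 at -0.051, acr-5 at -1.15 and del-1 at 0.056, so that 1 of the 5 genes, acr-5, was called, and 22066 probe sets were, 27 higher and 22039 lower. Scaled to pan-neuronal genes, vab-7 was at 0.19 and not called (adjusted p = 0.127), acr-5 was at -0.58, and 19689 probe sets were called. unc-37 was at -0.086 on the pan-neuronal scale and -0.66 on the cholinergic one. In the same order, the glr-4 probe set 189846_at was at 0.054 (adjusted p = 0.647) and -0.52, and 190059_at at -0.64 and -1.21. Each scaling moves all probe sets by 1 value per array, which by construction lowers every change by 0.58 or 1.16. On the cholinergic scale all 5 genes had the same SE, 0.226, so the call of acr-5 there rests on no spread of its own. acr-5, near 0, was at -0.0049 with array weights, and 2234 probe sets were then called; an adjusted p below 0.1 gave 2338. Without single arrays, changes were 0.86 to 1.05 for ceh-12, 0.70 to 0.85 for vab-7, 1.15 to 1.26 for del-1, 1.04 to 1.22 for glr-4 and -0.022 to 0.029 for acr-5, the count of called genes was 4 each time, and 614 (without wild-type replicate 2) to 1677 (without wild-type replicate 3) probe sets were called. The glr-4 probe set 190059_at ran from -0.20 to 0.036, above 0 without unc-37 replicate 1. Arrays of the same replicate number did not deviate together (r = -0.19, -0.14 and -0.10), so the numbers do not pair them; with a replicate block the same 4 genes were called (adjusted p = 0.00473 to 0.0165) and 1065 probe sets. vab-7 and acr-5 have no value with only probe sets above the median level, being below it. Counts in the lists stayed within 1.5 times in 440 of 544 recomputations. That number includes counts that were 0 and stayed 0, so it says little about how stable the other counts were. For example, the 4 Wnt pathway genes called higher became 0 on the cholinergic scale and 7 with array weights.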

Other observations

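The nearest measured protein-coding genes in the RefSeq gene order, 2 on each side of every B-class gene, made 20 neighbours, of which 2 were called. Over all 17118 genes, 3.94% were called higher and 2.81% lower, so this count does not set the neighbours apart. unc-119, a pan-neuronal gene beside vab-7, rose by 0.67 (limma adjusted p = 0.0112), a call that ended without wild-type replicate 2 or unc-37 replicate 1. The collagen gene col-54 beside ceh-12 fell by 1.19 on the log2 scale (limma adjusted p = 0.00891). None of the 4 neighbours of del-1, the gene with the widest gap between groups, was called by limma, at changes of -0.19 to -0.09, unadjusted p of 0.140 to 0.493 and adjusted p of 0.406 to 0.751. Beside acr-5, oig-1, known from GABA motor neurons, was at 0.47 (adjusted p = 0.436), and beside glr-4 the cell cycle inhibitor gene cki-1 was at -0.68 (0.0640).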
